A study of Arabidopsis thaliana with 54 samples.

Results

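FHL, PIF7 and HYH are 3 light signalling genes of Arabidopsis thaliana. FHL (AT5G02200) encodes a partner of the far-red light receptor phytochrome A. PIF7 (AT5G61270) encodes a bHLH transcription factor of shade signalling, and HYH (AT3G17609) a bZIP transcription factor of light signalling. Each was taken by name, as a symbol or synonym, from the array features that are annotated with exactly 1 gene. Each had 1 such feature, so that the 3 genes are 3 of 16746 single-gene features, of 17504 features that carry any gene and of 38408 features in all.

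Their transcripts were measured in Col-0 seedlings on 54 Affymetrix Arabidopsis Gene 1.1 ST arrays, in 18 groups of 3 replicates. Seedlings grown in short days were 1 day old when the treatments began in closed glass desiccators. One set received ethylene at 1 µl per litre in unchanged light, another was shaded under a green filter, and the control set stayed in unchanged light and air. Photosynthetically active radiation was 40 µmol per square metre and second under shade and 140 in control and ethylene, and blue light was 3 under shade and 29 in control and ethylene. The red to far-red ratio was 0.45 under shade and 2.1 in control and ethylene. Hypocotyls, and cotyledons with the shoot apical meristem attached, were taken after 1.5, 13.5 and 25.5 h, both tissues from the same seedlings. The 13.5 h harvest fell in the dark period, so that at this time no group stood in light and the shaded seedlings differed from control in the light they had received before. All groups share the wild-type genotype, so no mutant of a light receptor or of these genes is among them. Replicates came from 3 independent experiments, each pooling RNA of 2 technical replicates of 25 seedlings, and p-values measure the spread between these. In such bulk tissue, fewer cells of a type and less RNA per cell cannot be told apart.

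Phytochrome A is made in the cytosol, and FHL and its relative FHY1 carry the light-activated receptor into the nucleus, where it restrains hypocotyl elongation in far-red-rich light. PIF7 is dephosphorylated when the red to far-red ratio drops, and then binds promoters of auxin synthesis and growth genes, through which hypocotyls lengthen in shade. HYH acts beside its close relative HY5 in promoting seedling development in light, including anthocyanin synthesis and the restraint of hypocotyl growth, and proteins of this kind are degraded in darkness. Ethylene is a gaseous hormone that lengthens Arabidopsis hypocotyls in light and shortens them in darkness. All levels below are log2 values of the deposited arrays, and all changes are differences of group means on that scale, so that a change of 1 is a doubling. A gene is called in a comparison when limma's moderated test gave an adjusted p under 0.05 over the 17504 gene-carrying features.

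Arrays of 1 group correlated at 0.966 to 0.983 over all features and no pair was identical. The tissue labels were checked against marker genes. The mean level of 4 stomatal lineage genes (SPCH, MUTE, FAMA and EPFL9) was 3.45 to 5.11 in hypocotyl arrays and 6.61 to 7.56 in cotyledon arrays. That of 4 photosynthesis genes was 9.75 to 11.08 in hypocotyl and 10.60 to 11.44 in cotyledon arrays, and the shoot meristem genes CLV3 and LAS averaged 2.14 to 3.16 in hypocotyl and 2.12 to 3.07 in cotyledon arrays, so that they did not separate the tissues. The 10 measured genes of a root and root hair list averaged 5.48 to 8.27 in hypocotyl and 5.16 to 6.17 in cotyledon arrays. They are BGLU21, BGLU22, BGLU23, NAI2, JAL22, JAL23, JAL31, JAL33, EXPA7 and EXPA18, called root markers below after the list. How far these genes gauge root tissue in these samples was not tested. Their summed level was 12.66 to 14.12 in hypocotyl and 12.74 to 13.42 in cotyledon arrays, so that it did not separate the tissues. Of the 27 hypocotyl arrays, 7 stood apart in BGLU21, a beta-glucosidase of root tissue, at 6.50 to 9.09 against 2.46 to 4.76 in the other 20. They are control replicates 1 and 3 at both 1.5 h and 13.5 h, ethylene replicate 3 at 1.5 h and replicate 1 at 13.5 h, and shade replicate 2 at 1.5 h. Leaving them out was chosen after seeing the data. It leaves a single control hypocotyl array at each of these times, taken to vary like the other groups, and each hypocotyl call it ends is given with that value.

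Over the 18 groups FHL spanned 2.71 between its lowest and highest group mean, PIF7 4.98 and HYH 3.54. The median SD within a group was 0.27 for FHL, 0.21 for PIF7 and 0.15 for HYH. FHL was lowest in cotyledons after 25.5 h of ethylene, at 4.44 ± 0.37 (SD, n = 3), and highest in hypocotyls after 25.5 h of shade, at 7.15 ± 0.41. In its order of group means, 16 of the 17 neighbouring pairs had overlapping arrays. The single gap, of 0.60, lay between hypocotyls after 25.5 h of ethylene and hypocotyls after 13.5 h of ethylene. Above it stood 5 groups, namely the 3 shaded hypocotyl groups, cotyledons after 25.5 h of shade and hypocotyls after 13.5 h of ethylene.

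PIF7 was ordered by harvest time. All 6 groups taken in the dark lay between 4.58 and 5.75, and all 12 groups taken in the light between 7.83 and 9.56, with a gap of 2.09 between these sets. Neighbours overlapped in 14 of 17 pairs. PIF7 was lowest in hypocotyls after 13.5 h of ethylene (4.58 ± 0.45) and highest in control cotyledons at 25.5 h (9.56 ± 0.04). HYH likewise lay between 4.14 and 5.69 in the 6 dark groups and between 6.76 and 7.68 in the 12 light groups, with a gap of 1.06. Among its light groups the 4 shaded ones were the lowest, at 6.76 to 7.19, and among its dark groups the 2 shaded ones. Neighbours overlapped in 12 of 17 pairs for HYH. These orders describe the levels and carry no test.

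**Figure D1:**
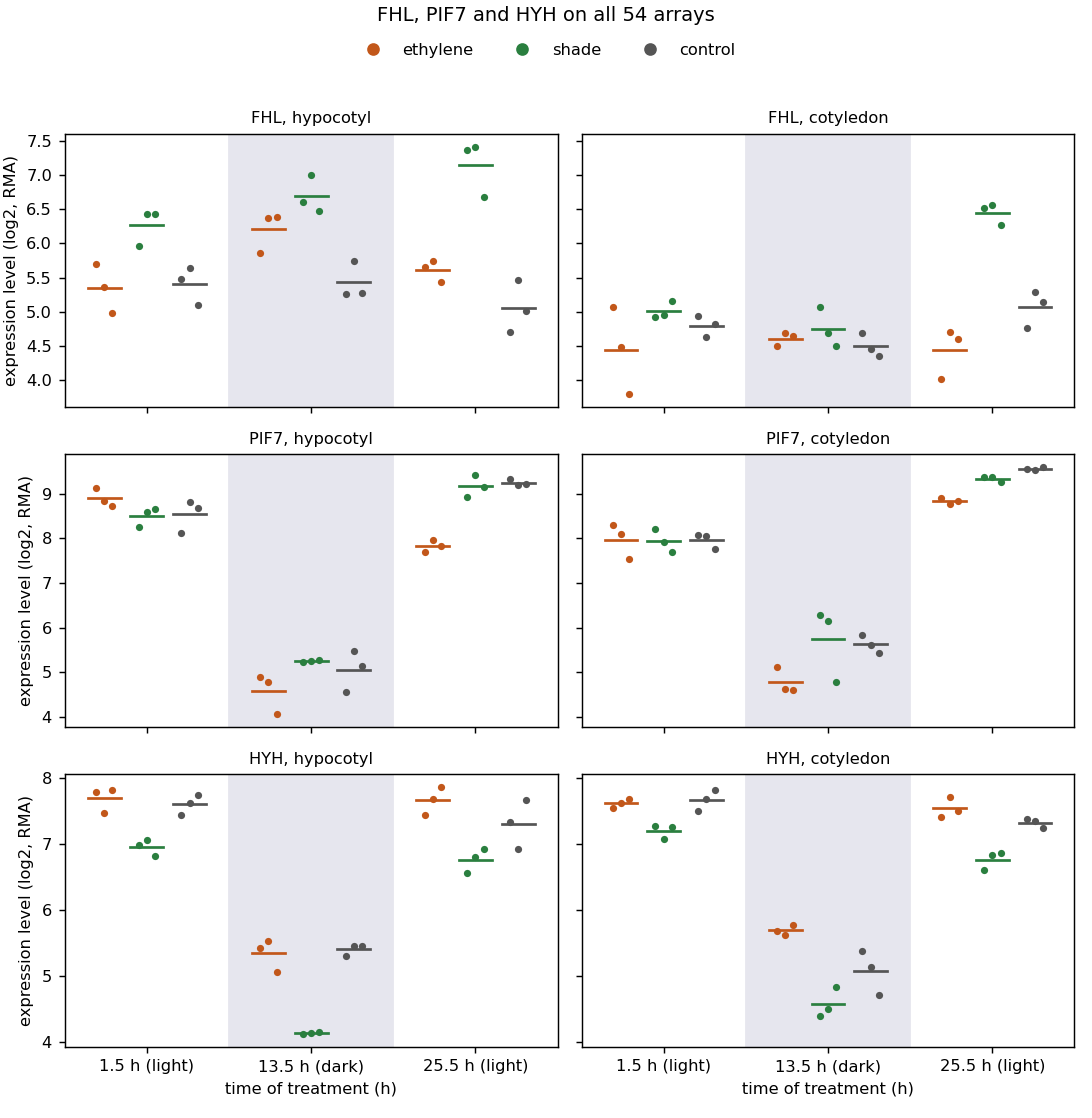
Expression of FHL, PIF7 and HYH (log2, RMA) on each of the 54 arrays, by tissue and time of treatment in hours. Points are single arrays, bars are means of 3, and the shaded band marks the harvest in the dark. PIF7 and HYH are low in every group of that band, while FHL is highest in shaded hypocotyls.

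FHL was raised by shade in the hypocotyl at all 3 harvests, and in the cotyledon at the last. At 1.5 h hypocotyl FHL was 5.96, 6.43 and 6.44 under shade, 5.70, 5.36 and 4.99 under ethylene, and 5.47, 5.64 and 5.09 in control. All 3 shaded arrays lay above all 3 control arrays, and the ethylene arrays overlapped control. Shade thus raised FHL by 0.87 ± 0.24 (SE, adjusted p = 0.0128), in a comparison in which 12.4% of features were called and the median feature changed by -0.12. The ethylene difference was -0.06 with a 95% interval of -0.54 to 0.43 (adjusted p = 0.996), where 3.03% of features were called. Without the arrays high in BGLU21 the shade difference was 0.55 (adjusted p = 0.544), and the call was also lost without control replicate 3 (0.72, adjusted p = 0.0929), shade replicate 2 (0.79, adjusted p = 0.0573) or shade replicate 3 (0.79, adjusted p = 0.061). The 10 root markers had a mean level of 6.73 to 7.63 in these shaded hypocotyl arrays and 7.17 to 8.27 in control, and their summed level was 13.59 to 13.66 in shade and 13.62 to 13.81 in control. Their part in the result was not tested.

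In the dark at 13.5 h hypocotyl FHL was 6.60, 7.001 and 6.48 under shade, 5.86, 6.37 and 6.39 under ethylene, and 5.27, 5.75 and 5.27 in control. Both treated groups lay wholly above control. The rise was 1.27 ± 0.24 under shade (adjusted p = 0.00024, 10.8% of features called) and 0.78 ± 0.24 under ethylene (adjusted p = 0.0252, 12% called). Without the arrays high in BGLU21 these differences were 0.95 (adjusted p = 0.0729) and 0.63 (adjusted p = 0.362), against a single control array of 5.75. The ethylene call was also lost without control replicate 1 (0.70, adjusted p = 0.107), control replicate 3 (0.70, adjusted p = 0.101), ethylene replicate 2 (0.69, adjusted p = 0.111) or ethylene replicate 3 (0.68, adjusted p = 0.125), while the shade call held without any single array. The root marker mean was 6.53 to 6.75 under shade, 6.16 to 7.21 under ethylene and 6.67 to 7.79 in control, and their summed level 13.90 to 14.12, 13.42 to 13.57 and 13.67 to 13.82 in the same groups. Their part in these results was not tested.

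At 25.5 h hypocotyl FHL was 7.36, 7.42 and 6.68 under shade, 5.65, 5.74 and 5.43 under ethylene, and 4.71, 5.47 and 5.01 in control. Every shaded array lay above every array of the other groups. Shade raised FHL 4.26-fold, by 2.09 ± 0.24 (adjusted p = 8.92e-09, 15.3% of features called), and no array of these 3 groups was high in BGLU21. Ethylene and control overlapped in 1 array each, with a difference of 0.55 (95% interval 0.06 to 1.03, adjusted p = 0.106), in a comparison in which 22.9% of features were called. Without control replicate 2 it was 0.75 (adjusted p = 0.0375).

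In the cotyledon FHL was called under shade at the last harvest and at neither of the earlier ones. At 1.5 h it was 4.92, 4.96 and 5.16 under shade, 5.07, 4.48 and 3.79 under ethylene, and 4.94, 4.63 and 4.82 in control. At 13.5 h it was 5.07, 4.69 and 4.50 under shade, 4.49, 4.68 and 4.64 under ethylene, and 4.68, 4.45 and 4.36 in control. All of these groups overlapped control, with differences of 0.21 (95% interval -0.27 to 0.70) and 0.26 (-0.23 to 0.74) under shade and of -0.35 (-0.84 to 0.14) and 0.11 (-0.38 to 0.60) under ethylene. Of all features, 0.526% were called under shade at 1.5 h and 4.54% at 13.5 h, and 1.01% and 1.61% under ethylene at the same times.

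At 25.5 h cotyledon FHL was 6.52, 6.56 and 6.27 under shade, 4.02, 4.70 and 4.60 under ethylene, and 4.77, 5.28 and 5.15 in control. The shaded arrays lay above control and the ethylene arrays below it, with no overlap between the 3 groups. Shade raised FHL by 1.38 ± 0.24, or 2.61-fold (adjusted p = 9.79e-05, 8.81% of features called). The ethylene difference of -0.63 (95% interval -1.11 to -0.14) was not called (adjusted p = 0.14, 5.20% called).

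Shade and ethylene were also compared with each other. FHL was higher under shade by 0.93 ± 0.24 in hypocotyls at 1.5 h (adjusted p = 0.00538, 16.8% of features called), by 1.54 at 25.5 h (adjusted p = 2.98e-06, 20.0% called) and by 2.01 in cotyledons at 25.5 h (adjusted p = 5.24e-08, 12.4% called). The first of these was 0.74 without ethylene replicate 3 (adjusted p = 0.057) and 0.67 without the arrays high in BGLU21 (adjusted p = 0.147). In the dark the difference was 0.49 in hypocotyls (95% interval 0.00 to 0.98, adjusted p = 0.199, 14.7% called) and 0.15 in cotyledons (-0.34 to 0.63, 4.80% called), and in cotyledons at 1.5 h it was 0.57 (0.08 to 1.05, adjusted p = 0.319, 2.21% called).

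FHL was the gene of the 3 with a called tissue difference in control. It was higher in hypocotyl than in cotyledon by 0.61 ± 0.24 at 1.5 h (adjusted p = 0.0387) and by 0.93 ± 0.24 at 13.5 h (adjusted p = 0.00224), and the arrays did not overlap at either time. At 25.5 h the difference was 0.00 (95% interval -0.49 to 0.48). Such calls were common, at 42.6%, 30.5% and 30.5% of features at the 3 times. The call at 1.5 h was lost without hypocotyl replicate 1 (0.57, adjusted p = 0.0975) or 2 (0.49, adjusted p = 0.16), without cotyledon replicate 2 (0.52, adjusted p = 0.128) or 3 (0.62, adjusted p = 0.0698), and without the arrays high in BGLU21 (0.85, adjusted p = 0.0514). It was 0.26 with arrays centred on 8 reference genes (adjusted p = 0.39), a scaling that lowered every hypocotyl minus cotyledon difference at that time by 0.35. Of those 8 genes, 4 were themselves called higher in hypocotyl in this comparison, so this scale was not neutral between the tissues.

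Whether a treatment acted differently in the tissues was tested as the hypocotyl change minus the cotyledon change. For ethylene at 25.5 h, where FHL differed from control by 0.55 in hypocotyls and by -0.63 in cotyledons, the tissues differed by 1.17 ± 0.34 (adjusted p = 0.0127, 14.8% of features called). This was 1.00 without hypocotyl control replicate 1 (adjusted p = 0.0573) and 0.96 without cotyledon ethylene replicate 1 (adjusted p = 0.0624). At 1.5 and 13.5 h of ethylene the tissues differed by 0.30 (95% interval -0.39 to 0.98) and 0.67 (-0.02 to 1.36), with 0.137% and 3.12% of features called. For shade the differences at 1.5, 13.5 and 25.5 h were 0.66 (-0.03 to 1.35), 1.01 (0.32 to 1.70, adjusted p = 0.0866) and 0.71 (0.02 to 1.395). None of these was called, where 2.16%, 3.91% and 5.63% of features were. The shade response of FHL, called in 3 hypocotyl comparisons and 1 cotyledon comparison, was therefore not shown to differ between the tissues at any of the harvests.

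In the fit of all arrays the hypocotyl shade response of FHL was larger at 25.5 h than at 1.5 h. The difference was 1.22 ± 0.34 (adjusted p = 0.0178, 8.99% of features called), and its call was lost in 6 of 20 alternatives. The same difference was 1.17 in cotyledons (95% interval 0.48 to 1.86), where 0.131% of features were called and the adjusted p was 0.183. The hypocotyl value was 1.04 without control replicate 1 at 25.5 h (adjusted p = 0.0694), 1.06 without shade replicate 1 at 1.5 h (adjusted p = 0.0621) and 1.09 without shade replicate 2 at 25.5 h (adjusted p = 0.0579). With arrays centred on the reference genes it was 0.87 (adjusted p = 0.102), though 3 of those 8 genes were called higher in hypocotyls after 25.5 h of shade. The call was also lost after quantile normalization within tissue and with only the compared arrays fitted. Without the arrays high in BGLU21 the difference was 1.54. Under ethylene the later response exceeded the earlier one by 0.60 in hypocotyls (-0.09 to 1.29, 14% called) and by -0.28 in cotyledons (-0.97 to 0.41, 0.840% called).

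In control seedlings FHL was not called between any pair of harvests in the fit of all arrays, in contrast to the other 2 genes. Its hypocotyl means were 5.40, 5.43 and 5.06 and its cotyledon means 4.80, 4.50 and 5.07 at 1.5, 13.5 and 25.5 h. Between 1.5 and 13.5 h it changed by 0.02 (95% interval -0.46 to 0.51) in hypocotyls and by -0.30 (-0.79 to 0.19) in cotyledons, where 31.2% and 18.4% of features were called. Between 13.5 and 25.5 h it changed by -0.37 (-0.85 to 0.12) in hypocotyls and 0.57 (0.08 to 1.06, adjusted p = 0.0761) in cotyledons, where 22.2% and 27.5% were called. Between the harvests in the light, 1.5 and 25.5 h, it changed by -0.34 (-0.83 to 0.14) and 0.27 (-0.22 to 0.76), where 31.9% and 17.0% were called. The cotyledon change from 13.5 to 25.5 h was 0.72 without replicate 1 at 25.5 h (adjusted p = 0.0439) and 0.83 on the scale centred on the reference genes (adjusted p = 0.00822). It was also called after quantile normalization within tissue (0.68, adjusted p = 0.0263) and with only the compared arrays fitted (0.57, adjusted p = 0.0478).

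**Figure D2:**
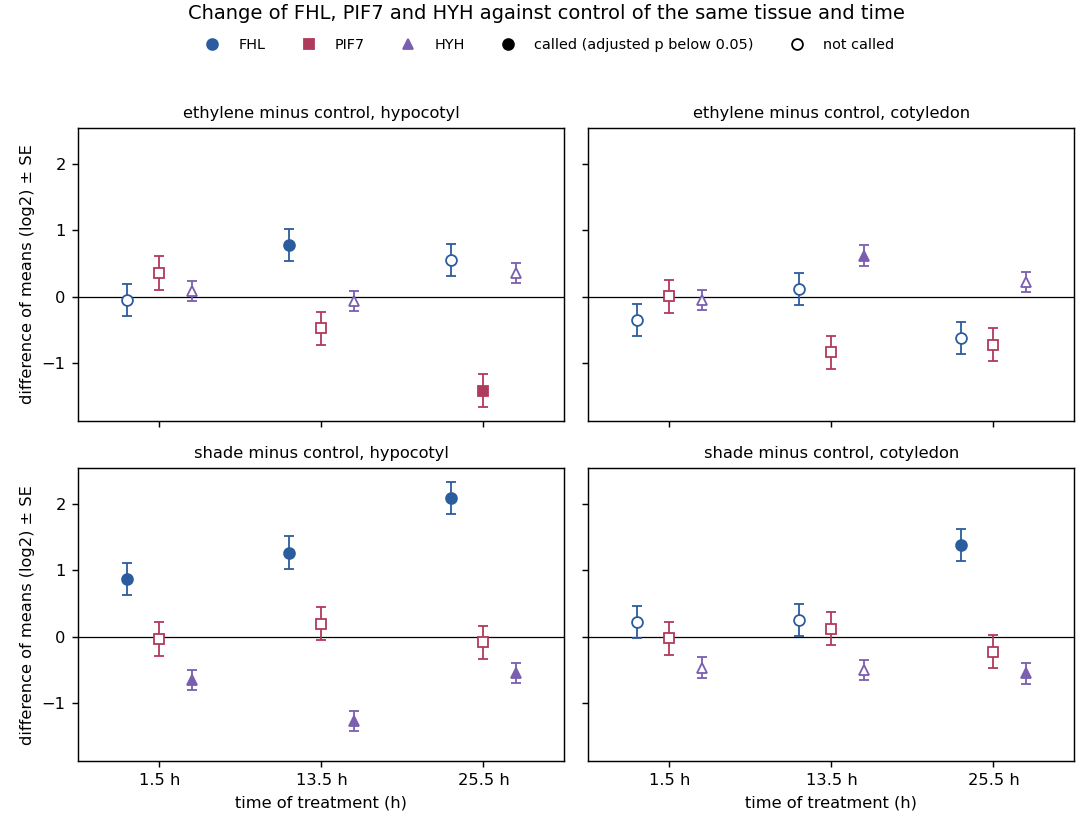
Difference of group means (log2) between treated and control seedlings of the same tissue and time for FHL, PIF7 and HYH, with bars of 1 SE and time of treatment in hours on the horizontal axis. Filled symbols passed an adjusted p of 0.05, and FHL lies above and HYH below control in all 6 shade comparisons while PIF7 lies within 0.23 of control in them.

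In control seedlings PIF7 fell in the dark in both tissues and was highest at the last harvest, and among the treatments ethylene lowered it in hypocotyls at 25.5 h. In control hypocotyls PIF7 was 8.12, 8.81 and 8.68 at 1.5 h, 4.56, 5.48 and 5.14 at 13.5 h, and 9.32, 9.20 and 9.23 at 25.5 h. In control cotyledons it was 8.08, 8.05 and 7.77, then 5.84, 5.61 and 5.44, then 9.55, 9.53 and 9.60. No 2 harvests overlapped in either tissue. The drop into the dark was -3.48 ± 0.25 in hypocotyls (adjusted p = 1.44e-14) and -2.34 in cotyledons (adjusted p = 1e-09), and the rise after it was 4.19 (adjusted p = 4.13e-17) and 3.93 (adjusted p = 2.11e-16), an 18.2-fold and a 15.3-fold change.

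Between the harvests in the light PIF7 also differed, being higher at 25.5 h than at 1.5 h by 0.71 in hypocotyls (adjusted p = 0.0254) and by 1.60, or 3.02-fold, in cotyledons (adjusted p = 6.28e-06). The hypocotyl call was lost without replicate 1 at 1.5 h (0.50, adjusted p = 0.179), without replicate 1 (0.68, adjusted p = 0.072) or 3 (0.72, adjusted p = 0.0506) at 25.5 h, and without the arrays high in BGLU21 (0.44, adjusted p = 0.435). All 6 control time comparisons thus called PIF7, against the 17.0% to 31.9% of all features given above. The 1.5 and 25.5 h harvests fell at the same time of day, while seedling age and time in the desiccators differed between them. The 13.5 h harvest differed from both in darkness, time of day and seedling age, which cannot be told apart. The fall in the dark was present in each treatment. In hypocotyls the dark mean minus the mean of both light harvests was -3.78 under ethylene, -3.57 under shade and -3.83 in control. In cotyledons it was -3.61 under ethylene, -2.89 under shade and -3.14 in control.

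Shade did not produce a call for PIF7 in any of 6 comparisons, in which 0.526% to 15.3% of features were called. In hypocotyls PIF7 was 8.25, 8.58 and 8.67 under shade at 1.5 h, 5.23, 5.26 and 5.27 at 13.5 h, and 8.92, 9.41 and 9.16 at 25.5 h, within or overlapping the control values above. In cotyledons it was 8.21, 7.91 and 7.70, then 6.29, 6.16 and 4.79, then 9.38, 9.37 and 9.26. Of these groups the last lay wholly below control, and the others overlapped it. The differences were between -0.23 and 0.20, and their 95% intervals together reached from -0.73 to 0.70. PIF7 protein was not measured here.

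Ethylene lowered PIF7 in hypocotyls at 25.5 h. Its values were 7.69, 7.96 and 7.83 under ethylene against 9.32, 9.20 and 9.23 in control, with a wide gap between the groups. The fall was by 1.42 ± 0.25 (adjusted p = 1.82e-05), a level 2.67-fold lower, in a comparison in which 22.9% of features were called. The call held without any single array. At 1.5 h PIF7 was 9.12, 8.83 and 8.73 under ethylene in hypocotyls and overlapped control, with a difference of 0.36 (95% interval -0.15 to 0.86). At 13.5 h it was 4.90, 4.79 and 4.06 and again overlapped control, with a difference of -0.48 (-0.98 to 0.03). The ethylene response was lower at 25.5 h than at 1.5 h by a difference of -1.77 ± 0.35 (adjusted p = 0.000261, 14% of features called).

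The 4 measured photosynthesis genes, of 25 listed, were lower in this comparison too. Their mean level was 9.75 to 10.09 in hypocotyls after 25.5 h of ethylene and 11.01 to 11.08 in control, their summed level was 12.03 to 12.44 under ethylene and 13.26 to 13.31 in control, and all 4 fell, among them PRK, phosphoribulokinase of the Calvin cycle (-1.71 ± 0.20, adjusted p = 2.71e-09), and RCA, Rubisco activase (-1.10 ± 0.09, adjusted p = 1.63e-13). The root marker mean was 5.48 to 5.83 under ethylene and 6.09 to 6.34 in control, with 4 of 10 lower and none higher. Of all 17504 features, 22.9% were called in this comparison, 1941 of them lower. The part of either list in the fall of PIF7 was not tested.

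In cotyledons PIF7 under ethylene was 8.29, 8.09 and 7.54 at 1.5 h, 5.12, 4.64 and 4.61 at 13.5 h, and 8.91, 8.77 and 8.83 at 25.5 h. At 1.5 h it overlapped control (difference 0.00, 95% interval -0.50 to 0.51), and at 13.5 and 25.5 h every ethylene array lay below every control array. The differences of -0.84 (-1.34 to -0.33, adjusted p = 0.0822) and -0.73 (-1.23 to -0.22, adjusted p = 0.0866) were not called, in comparisons in which 1.61% and 5.20% of features were. Hypocotyl and cotyledon responses to ethylene at 25.5 h differed by -0.69 (-1.41 to 0.02, adjusted p = 0.226). This difference was called with only the compared arrays fitted (adjusted p = 0.0105), so whether the tissues differed depended on the arrays in the fit. Set directly against each other, shade left PIF7 above ethylene by 1.33 ± 0.25 in hypocotyls at 25.5 h (adjusted p = 6.69e-05, 20.0% of features called) and by 0.95 in cotyledons at 13.5 h (adjusted p = 0.0162, 4.80% called). The other 4 differences were not called. In hypocotyls they were -0.39 at 1.5 h (-0.90 to 0.11), with every shade array below every ethylene array, and 0.67 at 13.5 h (0.17 to 1.18, adjusted p = 0.0645), with every shade array above. In cotyledons they were -0.03 at 1.5 h (-0.54 to 0.47) and 0.50 at 25.5 h (-0.01 to 1.00, adjusted p = 0.219), the last again with every shade array above every ethylene array. The arrays of the cotyledon comparison at 13.5 h overlapped through shade replicate 3, and its call was lost without shade replicate 1 (0.68, adjusted p = 0.188) or 2 (0.75, adjusted p = 0.142) and without ethylene replicate 2 (0.88, adjusted p = 0.0801) or 3 (0.86, adjusted p = 0.0844). With only the compared arrays fitted the adjusted p was 0.333.

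PIF7 had no called tissue difference in control. Hypocotyl minus cotyledon was 0.57 at 1.5 h (95% interval 0.06 to 1.08, adjusted p = 0.0632), -0.57 at 13.5 h (-1.07 to -0.06, adjusted p = 0.0835) and -0.31 at 25.5 h (-0.82 to 0.19, adjusted p = 0.385). The arrays did not overlap at 1.5 and 25.5 h and overlapped at 13.5 h. Without hypocotyl replicate 1 at 1.5 h the first difference was 0.78 (adjusted p = 0.0216), and without hypocotyl replicate 2 at 13.5 h the next was -0.78 (adjusted p = 0.0307).

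HYH fell under shade, in hypocotyls at all 3 harvests and in cotyledons at the last. At 1.5 h hypocotyl HYH was 6.98, 7.05 and 6.81 under shade, 7.78, 7.47 and 7.81 under ethylene, and 7.44, 7.62 and 7.74 in control. At 13.5 h it was 4.12, 4.14 and 4.16 under shade, 5.43, 5.53 and 5.07 under ethylene, and 5.31, 5.46 and 5.46 in control. In both of these harvests all shaded arrays lay below all arrays of the other groups, and ethylene overlapped control. The fall was by 0.65 ± 0.15 at 1.5 h (adjusted p = 0.00374, 12.4% of features called) and by 1.27 ± 0.15, to a level 2.41-fold lower, at 13.5 h (adjusted p = 1.18e-07, 10.8% called). Without the arrays high in BGLU21 these differences were -0.73 (adjusted p = 0.142) and -1.32 (adjusted p = 0.0002), and the first was -0.46 (adjusted p = 0.0731) on the scale centred on the reference genes.

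At 25.5 h hypocotyl HYH was 6.56, 6.79 and 6.93 under shade, 7.44, 7.68 and 7.86 under ethylene, and 7.34, 6.91 and 7.67 in control. Shade replicate 3 lay just above control replicate 2, so these groups overlapped, and the fall was by 0.55 ± 0.15 (adjusted p = 0.0101, 15.3% of features called). It was -0.45 without shade replicate 1 (adjusted p = 0.075) and -0.37 without control replicate 3 (adjusted p = 0.15). The hypocotyl ethylene differences were 0.08 (95% interval -0.23 to 0.40), -0.07 (-0.38 to 0.25) and 0.36 (0.04 to 0.67, adjusted p = 0.0999) at 1.5, 13.5 and 25.5 h. The last of these was 0.54 without control replicate 3 (adjusted p = 0.0133) and 0.47 without ethylene replicate 1 (adjusted p = 0.0473).

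In cotyledons HYH was 7.26, 7.07 and 7.25 under shade at 1.5 h, 7.53, 7.62 and 7.68 under ethylene, and 7.50, 7.68 and 7.81 in control. At 13.5 h it was 4.40, 4.50 and 4.84 under shade, 5.68, 5.62 and 5.78 under ethylene, and 5.38, 5.14 and 4.72 in control. At 25.5 h it was 6.60, 6.82 and 6.86 under shade, 7.41, 7.71 and 7.49 under ethylene, and 7.37, 7.34 and 7.23 in control. Shaded arrays lay below control without overlap at 1.5 and 25.5 h and overlapped it at 13.5 h.

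The cotyledon shade differences of HYH at 1.5, 13.5 and 25.5 h were -0.47 (95% interval -0.78 to -0.16, adjusted p = 0.203), -0.50 (-0.81 to -0.19, adjusted p = 0.0518) and -0.55 (-0.87 to -0.24, adjusted p = 0.0166), and the last passed the test. The background was 0.526%, 4.54% and 8.81% of features called in these comparisons. The call at 25.5 h was lost without control replicate 1 (-0.53, adjusted p = 0.0679) or 2 (-0.54, adjusted p = 0.0551) or shade replicate 1 (-0.47, adjusted p = 0.0897). At 13.5 h the difference passed the test without control replicate 3 (-0.68, adjusted p = 0.0108) or shade replicate 3 (-0.63, adjusted p = 0.0234).

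Ethylene raised HYH in cotyledons in the dark, by 0.62 ± 0.15 or 1.53-fold (adjusted p = 0.0226), with all ethylene arrays above control, where 1.61% of features were called. The call was lost without ethylene replicate 1 (0.62, adjusted p = 0.0757), 2 (0.65, adjusted p = 0.0517) or 3 (0.57, adjusted p = 0.0995) and without control replicate 2 (0.65, adjusted p = 0.0658) or 3 (0.44, adjusted p = 0.226), the lowest control array. At 1.5 and 25.5 h the cotyledon ethylene differences were -0.05 (95% interval -0.36 to 0.26) and 0.22 (-0.09 to 0.53). Between the treatments HYH was called lower under shade in 5 of 6 comparisons (adjusted p at most 0.000589). The differences were -0.74, -1.20 and -0.90 in hypocotyls at 1.5, 13.5 and 25.5 h, where 16.8%, 14.7% and 20.0% of features were called. In cotyledons they were -1.12 and -0.77 at 13.5 and 25.5 h, where 4.80% and 12.4% were called. At 1.5 h the cotyledon difference was -0.42 (-0.73 to -0.10, adjusted p = 0.202, 2.21% called).

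The response of HYH to shade differed between the tissues in the dark. The change was -1.27 in hypocotyls and -0.50 in cotyledons, and the difference of -0.77 ± 0.22 was called (adjusted p = 0.0363, 3.91% of features called). It was no longer called without hypocotyl shade replicate 1 or 2, hypocotyl control replicate 2 or 3, cotyledon shade replicate 3 or cotyledon control replicate 2 or 3, each left out alone, with values from -0.80 to -0.59. Without the arrays high in BGLU21 it was -0.82 (adjusted p = 0.0817), and with only the compared arrays fitted the adjusted p was 0.208. At 1.5 and 25.5 h the tissues differed by -0.19 (95% interval -0.63 to 0.26) and 0.01 (-0.44 to 0.45) in the shade response. For ethylene they differed by 0.13 (-0.31 to 0.58), -0.68 (-1.12 to -0.24, adjusted p = 0.0834) and 0.13 (-0.31 to 0.58).

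Like PIF7, HYH was low in the dark in control seedlings. Its change from 1.5 to 13.5 h was -2.19 ± 0.15 in hypocotyls (adjusted p = 8.03e-15) and -2.58 in cotyledons (adjusted p = 6.63e-17), and from 13.5 to 25.5 h it was 1.90 (adjusted p = 4.75e-13) and 2.24 (adjusted p = 2.84e-15). Unlike PIF7 it was not called between the harvests in the light, with -0.30 (95% interval -0.61 to 0.02) in hypocotyls and -0.35 (-0.66 to -0.03, adjusted p = 0.128) in cotyledons. The hypocotyl value was -0.48 without replicate 3 at 25.5 h (adjusted p = 0.0242). In control the tissues differed by -0.06 (-0.37 to 0.25), 0.33 (0.02 to 0.64, adjusted p = 0.106) and -0.01 (-0.32 to 0.30), none of them called. On the scale centred on the reference genes the first was -0.41 (adjusted p = 0.0383) and the second 0.43 (adjusted p = 0.0426). Of the 8 reference genes, 4 were themselves called higher in hypocotyl at 1.5 h and 3 lower at 13.5 h.

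The spread of the 18 group means was divided into shares for tissue, treatment, time and their combinations. For FHL tissue held 39.3% and treatment 32.8%, time 4.52%, and treatment by time 12.3%. For PIF7 time held 93.0% and treatment 1.95%, and for HYH time held 88.1% and treatment 10.1%. Tissue held 0.0521% for PIF7 and 0.0789% for HYH. The median over all gene-carrying features was 22.3% for tissue, 6.66% for treatment and 17.1% for time. These shares are a description of the group means and carry no test.

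**Figure D3:**
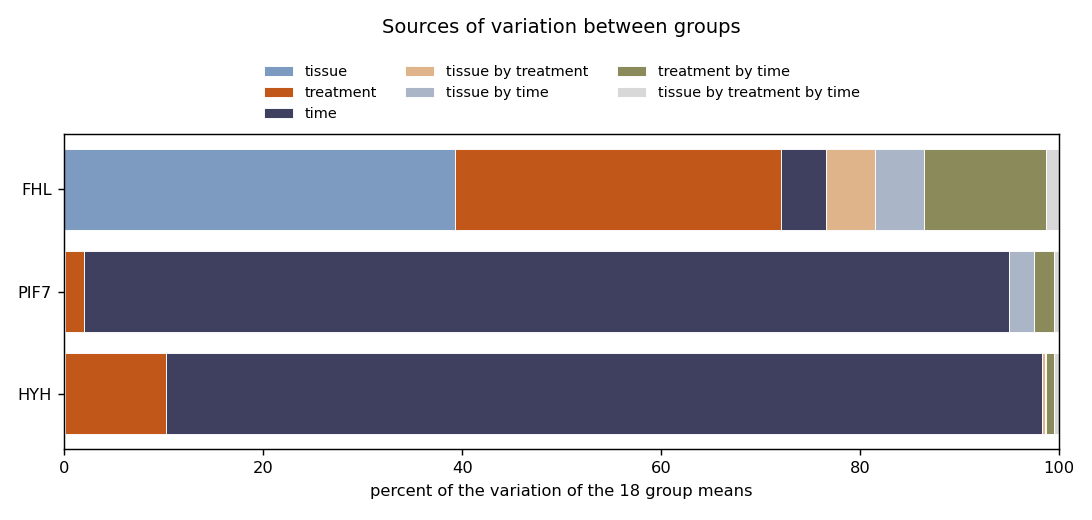
Percent of the variation of the 18 group means of FHL, PIF7 and HYH that lies with tissue, treatment, time and their combinations. Time fills most of the bars of PIF7 (93.0%) and HYH (88.1%), and tissue and treatment most of that of FHL.

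Over the 18 group means, which share arrays, experiments and harvest times, PIF7 and HYH correlated at r = 0.83 (rho = 0.52), FHL and PIF7 at 0.08 and FHL and HYH at -0.19. PIF7 and HYH were both low in all dark groups, as given above. Among 8630 other genes whose group means spanned at least 1, those most like FHL by Pearson's r over the 18 groups were AT5G62865 (0.93), AT3G16850 (0.90), AT1G56720 (0.89), the TCP transcription factor TCP15 (0.89) and AT1G78110 (0.88). Of these, 4 were highest in hypocotyls after 25.5 h of shade, as FHL was, and TCP15 was highest in hypocotyls after 13.5 h of shade. All were picked for this likeness, so a shared highest group largely follows from the choice. Over the 9 hypocotyl groups alone the first were IKU1 (0.97), AT5G62865 (0.93) and AT5G53410 (0.90).

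PIF7 and HYH had more genes of like pattern than FHL, with 57 and 30 genes above r = 0.9 and 2 for FHL. Nearest to PIF7 were AT5G57610 (0.96), AT1G55960 (0.96), AT5G54300 (0.95), AT3G21390 (0.95) and AT4G13010 (0.95), and over hypocotyls alone the glycosyltransferase gene UGT76E2 (0.99), AT2G34460 (0.98) and AT1G44000 (0.98). Nearest to HYH were AT4G09750 (0.99), the glycosyltransferase gene UGT74D1 (0.98), AT5G15910 (0.97), AFR (0.96) and AT1G22750 (0.95), and over hypocotyls alone UGT74D1 (0.98), AT4G09750 (0.98) and AT5G04830 (0.97). AFR encodes an F-box protein of phytochrome A signalling. Its group means ran from 4.27 in hypocotyls after 13.5 h of shade, where HYH was lowest too, to 8.96 in hypocotyls after 25.5 h of ethylene. AFR was picked for its likeness to HYH, so the shared lowest group is no separate result. By rank correlation 3 of the 5 genes nearest to FHL, 1 of those nearest to PIF7 and 2 of those nearest to HYH were again among the first 5.

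From lists of light signalling, clock and target genes, 8 further genes had a feature of their own. They are the auxin and shade response genes IAA29 (an Aux/IAA repressor), HAT2 (a homeodomain factor), SAUR10 (a small auxin-induced gene) and YUC2 (an auxin synthesis enzyme), the anthocyanin enzyme gene DFR, the phytochrome B partner TZP, and TIC and GI of the circadian clock. None of the 7 listed phytochrome and cryptochrome genes was analysed here. Under shade, 1 of the 8 rose and 2 fell in hypocotyls at 1.5 h, 1 rose and 1 fell at 13.5 h, and 2 rose and 2 fell at 25.5 h, where 12.4%, 10.8% and 15.3% of all features were called. In cotyledons 1 rose at 1.5 h, 1 rose and 1 fell at 13.5 h, and 3 rose and 1 fell at 25.5 h, where 0.526%, 4.54% and 8.81% were called. Their median change was between -0.20 and 0.35 in these 6 comparisons, and the median of all features was between -0.12 and 0.02.

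IAA29, a gene that PIF proteins are known to bind, was called in 5 of the 6 shade comparisons while PIF7 itself was called in none. These comparisons called 0.526% to 15.3% of all features. IAA29 rose by 0.80 ± 0.26 and 1.48 in hypocotyls at 1.5 and 13.5 h and by 1.31, 1.09 and 2.75 in cotyledons at 1.5, 13.5 and 25.5 h (adjusted p at most 0.035), and in hypocotyls at 25.5 h it differed by 0.50 (95% interval -0.03 to 1.03). Other genes on the list of shade and PIF targets were called less often under shade. FHL is itself on that list and was called in 4 of the 6 comparisons. HAT2 was called only at 25.5 h, by 0.93 in hypocotyls and 0.98 in cotyledons. SAUR10 was called only in hypocotyls at 25.5 h (1.97), and YUC2 in no shade comparison. Both mostly lay below the array medians of 4.15 to 4.55 in control. In control at 1.5, 13.5 and 25.5 h YUC2 averaged 2.95, 2.61 and 2.84 in hypocotyls and 4.73, 4.13 and 4.13 in cotyledons. SAUR10 averaged 5.20, 2.06 and 2.17 in hypocotyls and 2.38, 2.47 and 2.57 in cotyledons. IAA29 was called from a similar level of 2.70, in control cotyledons at 13.5 h. Whether low signal hid responses of YUC2 and SAUR10 was not tested. Where ethylene lowered PIF7, in hypocotyls at 25.5 h, IAA29 fell by 0.94 ± 0.26 (adjusted p = 0.00575), while HAT2 rose by 1.36 (adjusted p = 2.37e-08), SAUR10 by 3.57 (adjusted p = 2.88e-15) and GI by 0.98 (adjusted p = 1.82e-06). In the other ethylene comparisons IAA29 lay above control. It rose by 1.02 in cotyledons at 1.5 h (adjusted p = 0.0366). Without a call it differed by 0.69 and 0.79 in cotyledons at 13.5 and 25.5 h, where PIF7 differed by -0.84 and -0.73, and by 0.11 and 0.19 in hypocotyls at 1.5 and 13.5 h. DFR, whose promoter is a known target of HY5, fell under shade in the comparisons of 13.5 and 25.5 h. The falls were by 3.39 ± 0.68 and 4.53 in hypocotyls and by 2.68 and 3.56 in cotyledons (adjusted p at most 0.0132). FHL, also on the list of shade and PIF targets, is the other measured gene on the list of HY5 and HYH targets. It moved the other way from DFR. In the same comparisons FHL differed by 1.27 and 2.09 in hypocotyls and by 0.26, not called, and 1.38 in cotyledons. At 1.5 h of shade, where hypocotyl HYH had fallen, DFR differed by -0.98 with a 95% interval of -2.34 to 0.39.

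**Figure D4:**
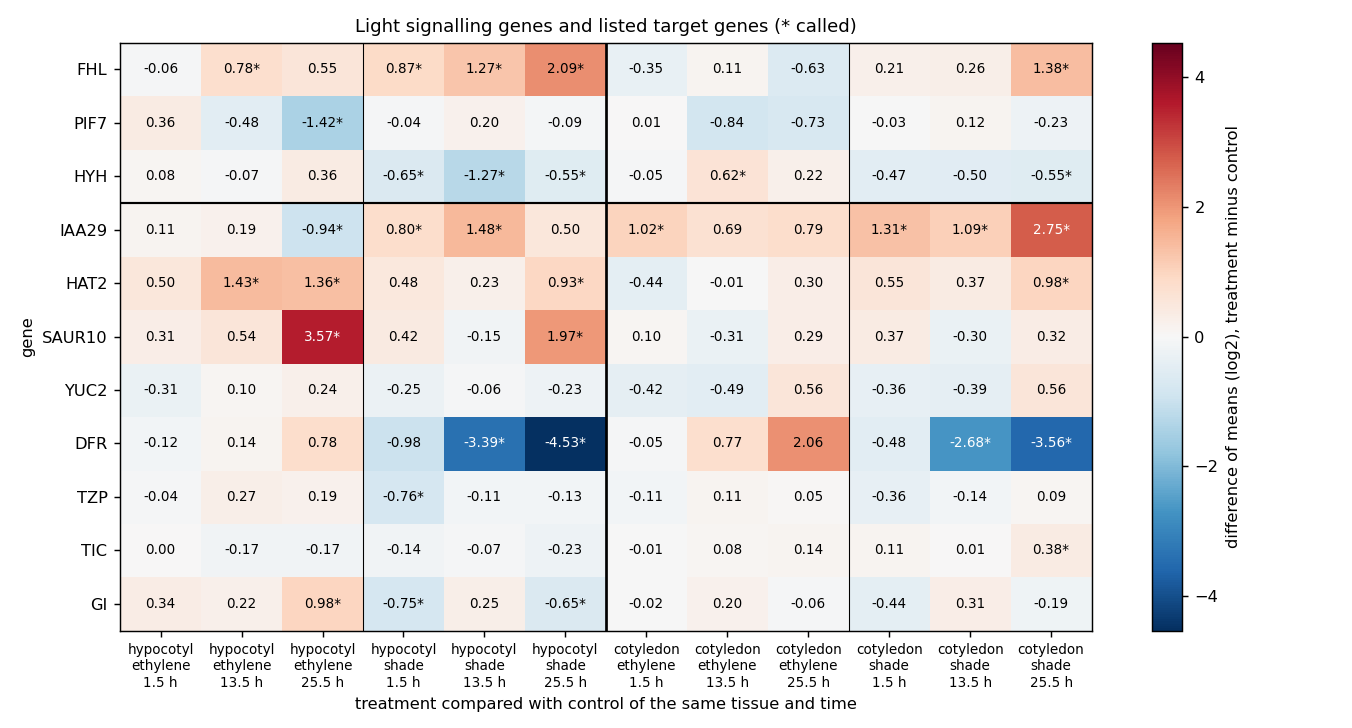
Difference of group means (log2, treatment minus control of the same tissue and time) for FHL, PIF7, HYH and the 8 further listed genes, by comparison, with an asterisk where the adjusted p was under 0.05. FHL and IAA29 carry positive values and HYH and DFR negative ones in all shade columns, and the row of PIF7 is near 0 in them.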

How the data were processed

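The authors deposited one table of log2 expression values, made from the arrays with RMA in Affymetrix Expression Console 1.4 at the level of core genes, per the labels and the submitters' processing notes. Transcriptome Analysis Console 3.0 is also named there. RMA brings all arrays to one distribution, so a change is relative to the other features of the array. No detection calls were used, and the number of arrays limits the precision. Groups were taken from the labels. Gene names came from the platform annotation, updated through a RefSeq gene table (16697 of 16746 single-gene features matched).

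All 54 arrays were fitted with limma 3.58.1 (R 4.3.3), estimating 18 group means, and empirical Bayes moderation, in 37 contrasts. Benjamini-Hochberg adjustment ran over 17504 gene-carrying features within each contrast. The fit was tested on simulated data. Named genes are FHL, PIF7 and HYH, the measured genes of the light signalling lists, and the 5 genes (3 in hypocotyls) most like each. Members and lists were chosen with earlier results of these data known. Same-numbered replicates of the same tissue and time correlated in their deviations at a median of 0.06 over 54 pairs, 15 of them above 0.1, so the numbers were not used as pairs. Pairs across the tissues were not checked. The tests between tissues therefore treated hypocotyl and cotyledon arrays as independent, though both came from the same seedlings. Alternatives were a replicate block, quantile normalization within tissue, centring on 8 reference genes, leaving out the dimmest 25% of features, all 38408 features, the compared arrays alone, eBayes with trend and robust options, each array left out, and the 7 arrays high in BGLU21 left out. A lone array left in a group was assumed to vary like the others.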

Additional observations from a re-analysis of the deposited data

Results flagged for a closer look

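In 4 results a gene's response differed between tissues or harvests by a test of that difference itself. There were 30 such tests of the 3 genes. The comparisons tested called 0.131% to 14.8% of all features, and those of the 4 results called 3.91% to 14.8%. FHL responded to ethylene at 25.5 h with 0.55 in hypocotyls and -0.63 in cotyledons, a difference of 1.17 (log2, adjusted p = 0.0127), while neither change alone was called. The FHL response to shade in hypocotyls was larger at 25.5 h than at 1.5 h by 1.22 (adjusted p = 0.0178). The PIF7 response to ethylene in hypocotyls was 0.36 at 1.5 h and -1.42 at 25.5 h, a difference of -1.77 (adjusted p = 0.000261). The HYH response to shade at 13.5 h was -1.27 in hypocotyls and -0.50 in cotyledons, a difference of -0.77 (adjusted p = 0.0363). Of these, the PIF7 result kept its call in every alternative run, with adjusted p up to 0.0158, and each of the other 3 lost it in at least 1.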

How the results depend on the processing

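Of 1674 values of the 3 genes under alternatives, 1585 kept direction and side of the threshold, 63 lost a call, 26 gained one and 0 changed direction past it. The causes were not tested. Compared arrays alone, fewer samples, gave FHL 0.78 (hypocotyl ethylene 13.5 h, adjusted p = 0.0887) and 0.87 (hypocotyl shade 1.5 h, 0.053), and for HYH -0.55 (hypocotyl shade 25.5 h, 0.16), 0.62 (cotyledon ethylene 13.5 h, 0.256) and -0.55 (cotyledon shade 25.5 h, 0.0761) without a call, and PIF7 -0.73 (cotyledon ethylene 25.5 h, 0.0181) with one. Centring on reference genes, which moved treatment differences by -0.19 to 0.19, gave 0.70 for FHL (hypocotyl ethylene 13.5 h, adjusted p = 0.058), -0.46 for HYH (hypocotyl shade 1.5 h) and a PIF7 range of 5.21. HYH in shaded cotyledons at 13.5 h, -0.50, was called with the replicate block (adjusted p = 0.0467), without the dimmest features (0.0404) and with trend and robust options (0.0471). The replicate block changed no other treatment call, and also called PIF7 for shade against ethylene in hypocotyls at 13.5 h (0.67, adjusted p = 0.0471) and between control tissues at 1.5 h (0.57, adjusted p = 0.049). Without the arrays high in BGLU21, FHL was 0.63, 0.55 and 0.95 (hypocotyl ethylene 13.5 h, shade 1.5 h and 13.5 h) and HYH -0.73 (hypocotyl shade 1.5 h), none called. Called counts over the 3 genes of 2 each fell to 1 for control tissue differences (quantile normalization, BGLU21 arrays out), for tissue differences in response (BGLU21 arrays out) and for time differences in response (quantile normalization, centring, compared arrays alone). With 1 array left out at a time, FHL ranged from 0.68 to 0.95 (hypocotyl ethylene 13.5 h), 0.37 to 0.75 (hypocotyl ethylene 25.5 h) and 0.72 to 1.03 (hypocotyl shade 1.5 h). HYH ranged from 0.16 to 0.54 (hypocotyl ethylene 25.5 h), -0.74 to -0.37 (hypocotyl shade 25.5 h), 0.44 to 0.76 (cotyledon ethylene 13.5 h), -0.68 to -0.35 (cotyledon shade 13.5 h) and -0.60 to -0.47 (cotyledon shade 25.5 h), and the counts from 1 to 3, 1 to 3 and 1 to 2. Other features of a gene could not be tried, since each gene has 1. A measure of signal over background was not used here, so how near cotyledon FHL and the dark levels of PIF7 and HYH lie to background is unknown. Array medians over all features were 4.15 to 4.55, and HYH averaged 4.14 in hypocotyls after 13.5 h of shade. The changes of PIF7 and HYH into and out of the dark, and their differences at 13.5 h, carry this limit as well.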
